A study of Mus musculus with 4 samples.

Results

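The regions described here are 3 spans of the mouse genome that hold large clusters of olfactory receptor genes. On genome build mm9 they run from 85000001 to 90200000 on chromosome 2, from 109700001 to 115900000 on chromosome 7 and from 37500001 to 40100000 on chromosome 9. They measure 5.2, 6.2 and 2.6 Mb. The spans were chosen by position, without use of their 5-hydroxymethylcytosine (5hmC), and their receptor content was not checked against an annotation of that build. Each was divided into tiles of 5 kb, and a tile was kept when the input libraries together held at least 5 distinct reads in it. This left 2450 of 2800 tiles, out of 476875 of 527794 kept on chromosomes 1 to 19 and X. The chromosome 2 cluster contributed 936 tiles, the chromosome 7 cluster 1027 and the chromosome 9 cluster 487. The 3 Mb on each side of every cluster served for comparison and gave 3493 of 3600 tiles.

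5hmC was compared between neural progenitor cells (NPC) and the mouse embryonic stem cells (ESC) they were made from. Each cell type gave 1 library of antibody-bound DNA and 1 of input DNA, 4 in all, so that every group was a single library. Both cell types belonged to the 46C line, strain 129/Ola, whose Sox1-GFP reporter marks early neural cells, and neither had received siRNA or shRNA. NPC were the rosette-like cells positive for Sox1-GFP at day 9 of a monolayer differentiation in N2B27 medium. ESC were grown in medium with 10% fetal bovine serum and 1000 U/ml leukemia inhibitory factor. About 4 µg of sheared DNA of each cell type, in fragments under 500 bp with a barcode for its cell type, was mixed in a single tube. Of this mixture 10% was kept as input, and the remainder was precipitated with 4 µg of an antibody to 5hmC. The cells came from a single line, and the labels name no second culture, so the spread between cultures is unknown.

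Olfactory receptors are G protein-coupled receptors that bind odorants. Their genes form the largest gene family of the mouse, lie side by side in long clusters that arose by repeated duplication, and are silent in nearly all cells outside the olfactory epithelium, where a sensory neuron expresses a single receptor allele. 5hmC is made from 5-methylcytosine by TET enzymes, lies mainly in CG dinucleotides in most tissues, and is abundant in the bodies and enhancers of active genes. An antibody to 5hmC recovers fragments by the marked bases they carry, and DNA with few CG dinucleotides offers few places for the mark.

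Receptor genes of such clusters are poor in CG dinucleotides at their starts, as promoter sequences from RefSeq (build GRCm38.p6) show. That build differs from the one of the reads. No gene was therefore placed on a tile or window, and RefSeq was used for names, gene order and sequence alone. RefSeq lists 1428 olfactory receptor entries. The longest runs on chromosomes 2, 7 and 9 hold 293, 238 and 127 of them, 658 in all, of which 222, 193 and 95 are coding genes. Promoter sequences were matched for 435 of the 658. To show what such DNA looks like, 1 promoter is printed per run, taken as the entry with the median number of CG dinucleotides and the lowest gene ID. Each covers 250 bases before the RefSeq gene start and 50 after it, which need not be the start of transcription, and capitals mark the CG dinucleotide. The sequences lie at chr2:90052273-90052572 on the minus strand, chr7:107097217-107097516 on the plus strand and chr9:38329242-38329541 on the plus strand.
Olfr140: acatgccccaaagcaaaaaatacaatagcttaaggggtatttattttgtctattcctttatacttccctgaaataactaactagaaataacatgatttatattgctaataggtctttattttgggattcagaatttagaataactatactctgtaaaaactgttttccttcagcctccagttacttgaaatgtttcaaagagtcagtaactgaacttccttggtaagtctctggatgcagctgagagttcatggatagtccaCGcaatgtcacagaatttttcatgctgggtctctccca
Olfr17: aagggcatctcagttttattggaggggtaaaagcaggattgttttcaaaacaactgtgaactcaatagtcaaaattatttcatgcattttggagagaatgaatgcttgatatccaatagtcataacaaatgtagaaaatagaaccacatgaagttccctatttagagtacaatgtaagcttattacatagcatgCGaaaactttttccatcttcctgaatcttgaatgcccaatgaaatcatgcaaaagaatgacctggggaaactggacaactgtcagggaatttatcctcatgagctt
Olfr25: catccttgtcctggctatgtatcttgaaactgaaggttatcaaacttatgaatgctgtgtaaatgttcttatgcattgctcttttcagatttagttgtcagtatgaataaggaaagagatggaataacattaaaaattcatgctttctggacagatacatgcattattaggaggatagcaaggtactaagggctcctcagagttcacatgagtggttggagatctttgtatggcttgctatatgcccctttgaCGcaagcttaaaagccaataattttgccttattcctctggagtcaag

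Each of these 300-base sequences holds a single CG, which is the median of the receptor promoters in each of the runs. Over the 435 receptor promoters the quartiles were 0 and 2 and the highest count 8. The 26081 promoters of genes that are not olfactory receptors, within the runs or elsewhere, had a median of 8. No CG was found in 35.4% of the receptor promoters and in 4.77% of the others, and 10 or more were found in 0 receptor promoters, against 45.5% of the others. The motif searched was CG, which reads the same on both strands, and 94.2% of the 27025 promoters counted hold it. Only sequences of 300 bases were counted, and a chromosome that carries none of the runs was left out. The median share of G and C bases was 34% in receptor promoters and 53.3% in the others. Whether the number of CG dinucleotides accounts for any difference in 5hmC was not tested, because no mm9 sequence was used here.

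**Figure D1:**
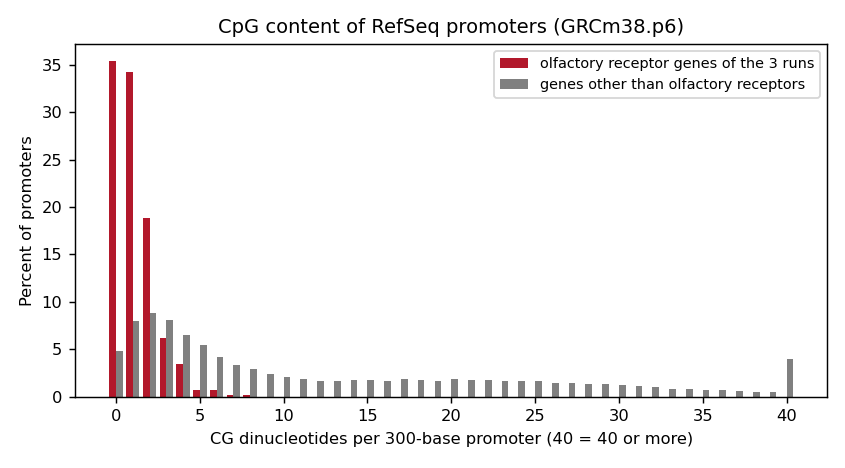
Number of CG dinucleotides in the 300 bases around RefSeq gene starts (horizontal axis) against the percent of promoters (vertical axis), for the 435 receptor genes of the 3 runs (red, left bar of each pair) and 26081 genes that are not olfactory receptors (grey). The receptor promoters end at 8 CG dinucleotides, while 45.5% of the others hold 10 or more.

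The runs differ in what else they contain. The chromosome 2 run lies between Lrrc55 and Ptprj and holds 3 other coding genes, Fads2b, Pramel7 and Pramel6, with 155 receptor entries in an unbroken row. The chromosome 9 run lies between Panx3 and Zfp202 and likewise holds 3 others, Vwa5a, AW551984 and Tmem225. The chromosome 7 run, between Rrm1 and Nlrp10, is interrupted far more often, with 55 other coding genes and at most 52 receptor entries in a row. Among the 55 are 5 beta-globin genes (Hbb), which encode subunits of hemoglobin, and 13 genes of the Trim family, several of which act in antiviral defence. They also include broadly expressed genes such as Ilk, the integrin-linked kinase, and Taf10, a subunit of general transcription complexes.

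The read depth set the precision. Distinct reads, counted once per position and strand, numbered 1742680 in the NPC 5hmC library and 6588254 in the NPC input, against 7123491 in the ESC 5hmC library and 5059243 in the ESC input. In the kept cluster tiles these came to 4805 and 23515 reads in NPC, and to 11993 and 18636 in ESC. 5hmC reads were divided by input reads, and this quotient is called the level below. Its absolute value depends on how deeply each library was sequenced, so that it is read between regions and, because both cell types shared a tube, between cell types. Without replicate libraries, neither an error between cultures nor a test could be given. All intervals given in parentheses are 95% intervals for counting error, and reads that are PCR copies of a fragment are not independent molecules.

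The olfactory receptor clusters held less 5hmC than the DNA beside them in both cell types. As long as no background was subtracted, they also differed less between the cell types than that DNA did. In NPC the pooled clusters had a level of 0.204 (0.198 to 0.211), against 0.280 (0.275 to 0.285) in their flanks. In ESC the level was 0.644 (0.629 to 0.659) in the clusters, against 1.51 (1.496 to 1.53) in the flanks. The cluster-to-flank ratio was thus 0.731 (0.705 to 0.757) in NPC and 0.425 (0.414 to 0.436) in ESC. On the genome as a whole the levels were 0.264 in NPC and 1.41 in ESC, between those of the clusters and those of the flanks.

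NPC stood 3.15-fold below ESC in the clusters (3.03 to 3.27), 5.41-fold in the flanks (5.30 to 5.53) and 5.33-fold over the genome. Written as NPC/ESC ratios, these are 0.318 (0.306 to 0.330) in the clusters, 0.185 (0.181 to 0.189) in the flanks and 0.188 over the genome. The cluster ratio was 1.72 times that of the flanks (1.64 to 1.80). Its direction depended on the background of the precipitation, which no library measured. When the NPC level of the 23 megabase windows poorest in ESC 5hmC, 0.176, was subtracted from both cell types, the NPC/ESC ratio of the clusters became 0.0608 and the cluster ratio became 0.784 times that of the flanks. The cluster-to-flank ratio became 0.274 in NPC and 0.349 in ESC. Subtracting the same value from cluster and flank, where it lies below the pooled levels of both, cannot turn the depletion, so this is no check of it. Whether background accounts for the higher NPC/ESC ratio was not tested.

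With no background subtracted, the clusters differed from each other in ESC far more than in NPC. Their NPC levels lay near the 0.176 taken as background above, and what part background plays in their likeness was not tested. The chromosome 2 cluster had a level of 0.201 (0.190 to 0.211) in NPC and 0.420 (0.401 to 0.440) in ESC. The chromosome 7 cluster had 0.207 (0.197 to 0.216) in NPC and 0.819 (0.793 to 0.845) in ESC. The chromosome 9 cluster had 0.206 (0.192 to 0.221) in NPC and 0.604 (0.573 to 0.637) in ESC. With all tiles, the NPC levels lay within counting error of each other. Their ratio was 0.971 (0.905 to 1.04) for chromosome 2 over chromosome 7, 0.974 (0.892 to 1.06) for chromosome 2 over chromosome 9, and 0.997 (0.917 to 1.08) for chromosome 9 over chromosome 7. Without a single chromosome 2 tile, which held 129 NPC 5hmC reads and is described below, chromosome 2 stood at 0.895 of chromosome 7 (0.833 to 0.961) and at 0.898 of chromosome 9 (0.821 to 0.981). In ESC the first 3 pairs, with all tiles, had ratios of 0.513 (0.485 to 0.542), 0.695 (0.649 to 0.746) and 0.738 (0.694 to 0.784), so that chromosome 2 was lowest and chromosome 7 highest beyond counting error.

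The NPC/ESC ratios ran in the opposite order to the ESC levels, which follows from dividing nearly equal NPC levels by them. The ratio was 0.477 (0.445 to 0.512) on chromosome 2, 0.341 (0.313 to 0.372) on chromosome 9 and 0.252 (0.239 to 0.267) on chromosome 7. NPC were thus 2.09-fold, 2.93-fold and 3.96-fold below ESC. Set against its own flanks, the ratio was 2.55 times theirs on chromosome 2 (2.36 to 2.77), 1.75 times on chromosome 9 (1.59 to 1.92) and 1.46 times on chromosome 7 (1.37 to 1.56). After the subtraction of background the NPC/ESC ratios were 0.101 on chromosome 2, 0.0702 on chromosome 9 and 0.0476 on chromosome 7, which is 1.22, 0.772 and 0.791 times those of their flanks. Without the tile of 129 NPC 5hmC reads the chromosome 2 ratio after subtraction was 0.0394, or 0.477 times that of the flanks. By value alone, leaving out that tile took chromosome 2 from the highest to the lowest of the clusters. Its NPC level without the tile, 0.185, had an interval from 0.175 to 0.195, which includes the background subtracted. The sign of that ratio is therefore not resolved. No interval was calculated for the ratios after subtraction, so the order of the clusters by them is not resolved either.

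All 6 flanks were above their cluster in both cell types, but unequally. In NPC the cluster level was 0.819 of the left and 0.635 of the right flank on chromosome 2. It was 0.794 and 0.835 on chromosome 7, and 0.751 and 0.641 on chromosome 9. In ESC the cluster level was 0.402 of the left and 0.229 of the right flank on chromosome 2, 0.491 and 0.651 on chromosome 7, and 0.542 and 0.317 on chromosome 9. The left flanks of chromosomes 2 and 9 and the right flank of chromosome 7 were below the genome's 1.41 in ESC, at 1.04 (1.005 to 1.09), 1.11 (1.08 to 1.15) and 1.26 (1.22 to 1.29) reads per input read. The right flanks of chromosomes 2 and 9 and the left flank of chromosome 7 were above it, at 1.83 (1.79 to 1.88), 1.90 (1.85 to 1.96) and 1.67 (1.62 to 1.71).

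**Figure D2:**
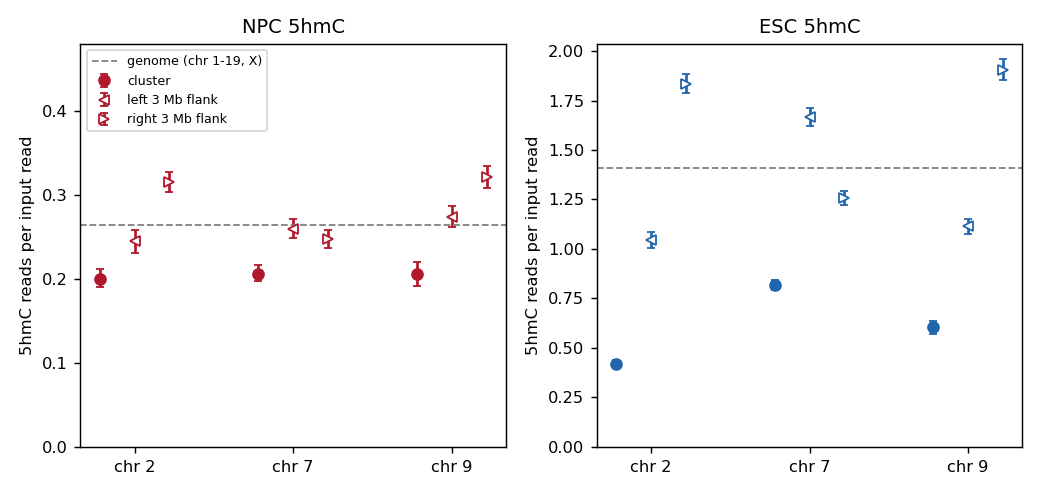
5hmC reads per input read (vertical axis, from 0) in NPC (left panel) and ESC (right panel) for each cluster (filled circles) and its left and right 3 Mb flanks (open triangles), with 95% intervals for counting error and the genome level as a dashed line. With all tiles, the 3 clusters sit between 0.201 and 0.207 in NPC, and in ESC they spread from 0.420 to 0.819.

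Input coverage also differed between clusters and flanks. A kept cluster tile held 9.60 input reads in NPC and 7.61 in ESC, which is 0.580 and 0.590 of the number in a kept flank tile. The levels divide by this input. The share of tiles left out for too few input reads was 10% on chromosome 2, 17.2% on chromosome 7 and 6.35% on chromosome 9, against 2.97% in the flanks and 9.65% over the genome. The longest run without an input read spanned 150 kb on chromosome 7, from 113085001 to 113235000, and 75 kb on chromosome 2, from 90010001 to 90085000. How reads with several matches were treated is not given in the sources used here, and near-identical receptor copies would be affected by it. Just inside the minimum, the 35 cluster tiles with 5 input reads held 22 NPC and 65 ESC 5hmC reads. Just outside it, the 42 tiles with 4 input reads held 26 and 46.

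Single tiles within the clusters were seldom enriched. A tile was called enriched at 10 or more 5hmC reads and a level at least 2-fold above its own input, after each library was scaled to its distinct reads and 0.5 reads were added. In NPC 31 of 2450 cluster tiles passed (1.27%), against 8.25% of flank tiles and 5.82% of all kept tiles. In ESC 57 passed (2.33%), against 12.1% of flank tiles and 10.6% of all kept tiles. In both cell types 7 cluster tiles passed. By cluster, chromosome 2 held 7 enriched tiles in NPC and 7 in ESC, chromosome 7 held 16 and 40, and chromosome 9 held 8 and 10.

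The fixed minimum of 10 reads is harder to reach where coverage is thin. A higher minimum of 15 input reads, chosen after the data were seen, kept 1496 cluster tiles, of which 26 were enriched in NPC (1.74%) and 37 in ESC (2.47%). Flank tiles of that depth reached 8.87% in NPC and 12.9% in ESC, and all such tiles 7.1% and 12.6%. Many cluster tiles had no 5hmC read: 640 in NPC (26.1%) and 352 in ESC (14.4%), against 8.59% and 3.21% of flank tiles. The median cluster tile held 1 NPC and 3 ESC 5hmC reads, against 3 and 14 in the flanks. A count of 0 in a tile of this depth allows up to 3 reads and does not show that the mark is absent.

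Of the 81 cluster tiles enriched in either cell type, 62 were at least 2-fold lower in NPC than in ESC (76.5%), against 84.8% over all kept tiles enriched in either, and 1 was at least 2-fold higher (1.23%), against 1.02% of those tiles. An interval for the cluster share that takes the 81 tiles as independent ran from 65.8% to 85.2%. Tiles share libraries and depth, so this interval cannot decide whether the cluster share differs from that over all tiles. The tile that was higher in NPC lay on chromosome 9 from 39180001 to 39185000, with 15 5hmC reads over 6 input reads in NPC and 6 over 6 in ESC. Its NPC/ESC ratio of 2.50 had an interval from 0.449 to 13.9.

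At 100 kb cluster windows lay at least 2-fold below the genome more often than all windows did, in both cell types. Windows with at least 100 input reads numbered 134 in the clusters, 180 in the flanks and 24888 in the genome. ESC levels were at least 2-fold below the genome in 108 cluster windows (80.6%) and 35 flank windows (19.4%), against 43.8% of all windows. NPC levels were at least 2-fold below the genome in 16 cluster windows (11.9%) and 1 flank window, against 4.24% of all windows. The median cluster window held 295 input reads, against 590 in the flanks and 454 elsewhere, so its level has a larger counting error. What part this plays in these shares was not tested. The NPC/ESC ratio was at least 2-fold above that of the genome in 86 cluster windows (64.2%) and 36 flank windows (20%), against 34% of all windows, with no background subtracted. The median cluster window had a level of 0.184 in NPC and 0.411 in ESC, the median flank window 0.249 and 1.39, and the median window elsewhere 0.233 and 0.837. Across the 134 cluster windows the NPC and ESC levels had a Spearman rho of 0.305, given as a description, since windows share libraries and depth.

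**Figure D3:**
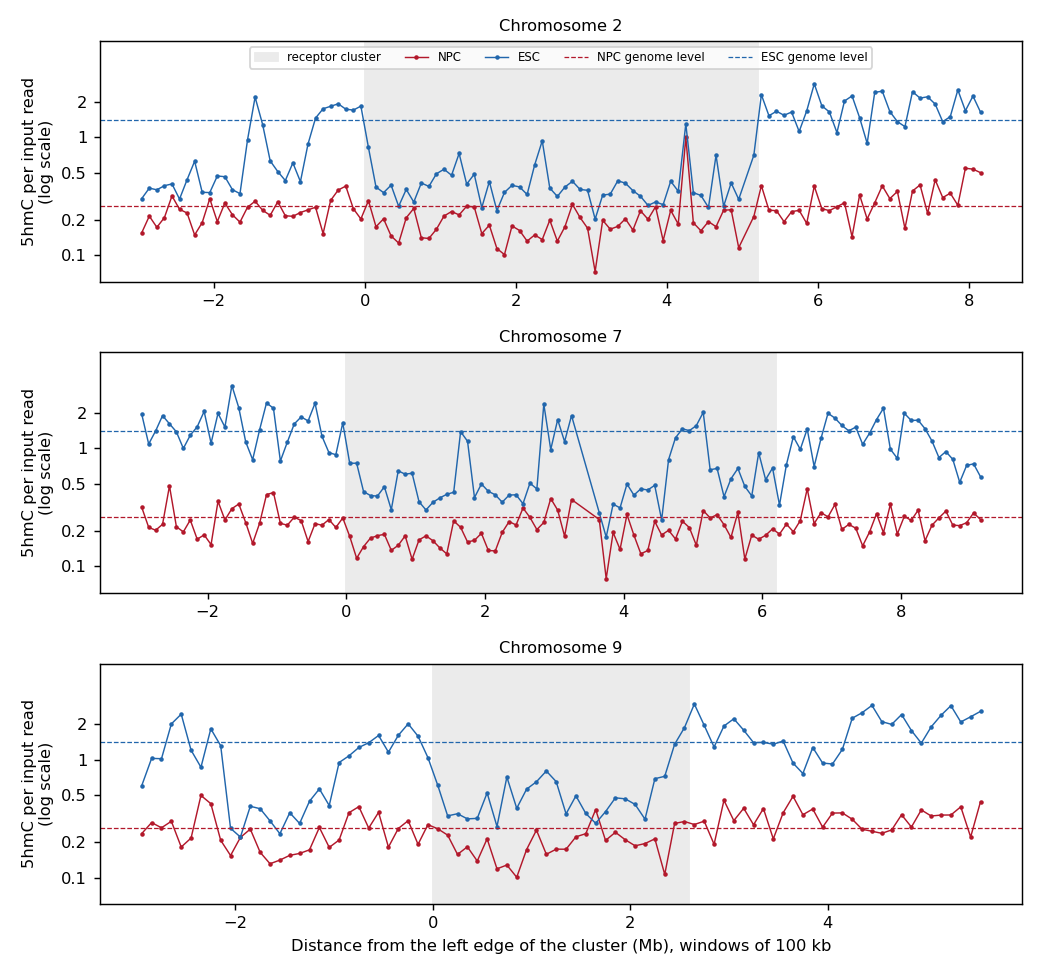
5hmC reads per input read (vertical axis, log scale) of NPC (red) and ESC (blue) in windows of 100 kb along each cluster (grey) and its flanks, by distance from the left edge of the cluster in Mb (horizontal axis). Dashed lines give the genome levels of 0.264 in NPC and 1.41 in ESC, and windows with fewer than 50 input reads are not drawn. ESC are low inside the clusters except in peaks of chromosome 7, in the window of chromosome 2 at 1.30 and near the right edge of chromosome 9, while the quartiles of the NPC cluster windows are 0.154 and 0.234, with single windows from 0.0729 up to the chromosome 2 window that peaks in both cell types.

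The ESC windows of the chromosome 2 cluster were the most alike, with quartiles of 0.319 and 0.425, beside 0.396 and 0.749 on chromosome 7 and 0.347 and 0.650 on chromosome 9. Of its 51 windows, 45 lay at least 2-fold below the genome in ESC. Its lowest window, from 88000001 to 88100000, held 7 5hmC reads over 96 input reads in NPC (0.0729) and 14 over 69 in ESC (0.203). The window with the highest NPC/ESC ratio, from 89700001 to 89800000, had 0.241 in NPC and 0.260 in ESC, a ratio of 0.926 (0.533 to 1.61). The lowest ratio, 0.146 (0.0914 to 0.229), was found from 87300001 to 87400000, with 0.136 in NPC and 0.935 in ESC. In that window the tile from 87340001 to 87345000 held 1 5hmC read over 21 input reads in NPC and 27 over 4 in ESC.

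The highest ESC window of the chromosome 2 cluster, from 89200001 to 89300000, rested on a single tile. The tile from 89225001 to 89230000 held 129 5hmC reads over 5 input reads in NPC and 109 over 5 in ESC. Its enrichment over input reached 97.5-fold (40.7 to 305) in NPC. In ESC it reached 15.5-fold (6.44 to 48.6). Its NPC/ESC ratio was 1.18 (0.265 to 5.28). Among all 476875 kept tiles it ranked 1 by NPC enrichment and 11 by NPC 5hmC reads. The reads were spread over the whole tile, with 17, 22, 30, 34 and 26 NPC reads in its 1 kb parts, while the tiles on either side held 2 and 3. Of its reads, 79.8% lay on the plus strand in NPC and 79.8% in ESC.

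That tile carried weight in the NPC values. With it the window held 168 5hmC reads over 168 input reads in NPC and 147 over 113 in ESC. Without it the levels of the window were 0.239 in NPC and 0.352 in ESC. The chromosome 2 cluster then had 0.185 (0.175 to 0.195) in NPC and 0.403 (0.384 to 0.422) in ESC, with a ratio of 0.459, and the pooled clusters had a ratio of 0.312. Unequal strands were not peculiar to it. Among tiles with at least 20 reads in the NPC 5hmC library, more than 75% lay on 1 strand in 2 of 3 cluster tiles, 10 of 44 flank tiles and 20.6% of genome tiles, and in the ESC library in 8 of 117 cluster tiles and 4.64% of genome tiles. What part strand or thin input plays in the tile's enrichment was not tested.

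The other highest NPC tiles of chromosome 2 had far fewer reads. From 89025001 to 89030000 there were 17 5hmC reads over 6 input reads in NPC, a 10.7-fold enrichment (4.03 to 33.2), and 12 over 6 in ESC, a 1.42-fold enrichment (0.493 to 4.61). From 85060001 to 85065000 NPC had 14 over 11, or 4.81-fold (2.03 to 11.7), and ESC 24 over 10, or 1.70-fold (0.786 to 3.99). Both lie within the cluster, and both intervals in ESC include 1.

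The chromosome 7 cluster was a mosaic of poor and rich DNA. Runs of at least 2 adjacent 100 kb windows with an ESC level of 1 or more were found at 111300001 to 111500000, 112700001 to 113000000 and 114400001 to 114900000. This rule was set after the values were seen and chose on ESC, so that their high ESC level and low NPC/ESC ratio are descriptions. It took windows with 50 or more input reads. Together they had a level of 0.241 (0.221 to 0.263) in NPC and 1.57 (1.49 to 1.66) in ESC, with an NPC/ESC ratio of 0.154 (0.139 to 0.170). The rest of the cluster still held its highest ESC window, from 112500001 to 112600000 at 2.37, because both neighbours of that window lay below 1. This rest had 0.195 (0.185 to 0.206) in NPC and 0.561 (0.539 to 0.585) in ESC, with a ratio of 0.348 (0.325 to 0.372). After the subtraction of background these ratios were 0.0470 in the rich runs and 0.0500 in the rest. The rich runs thus stood 1.24 times above the rest in NPC (1.12 to 1.37), beside 2.80 times in ESC. The rule did not use the NPC level, but NPC levels rose with ESC levels elsewhere too. Autosomal windows outside clusters and flanks had an NPC level of 0.210 at ESC levels of 0.4 to 0.6 and 0.274 at 1 to 2. A window of the run at 111300001 held 51 input reads. With that run counted to the rest, the rich runs stood 1.25 times above the rest in NPC (1.13 to 1.39).

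A single run of this kind lay in the chromosome 9 cluster, from 39900001 to 40100000 at its right edge, with 0.294 (0.244 to 0.352) in NPC and 1.66 (1.47 to 1.87) in ESC. Chromosome 2 held none. Over all 4 runs, 216 tiles, the NPC level was 0.895 of that of the flanks (0.826 to 0.969). The 2234 tiles outside the runs had 0.197 (0.191 to 0.204) in NPC and 0.486 (0.473 to 0.4996) in ESC, a ratio of 0.406. These tiles include single windows with an ESC level above 1 on chromosomes 2 and 7. Outside the runs the NPC levels of the clusters were 0.201, 0.195 and 0.194 on chromosomes 2, 7 and 9, and their ESC levels 0.420, 0.561 and 0.462.

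The highest ESC window of chromosome 7, from 112500001 to 112600000, had 0.236 (0.183 to 0.302) in NPC and 2.37 (2.004 to 2.82) in ESC, a ratio of 0.0994 (0.0740 to 0.134). In it the tile from 112580001 to 112585000 held 4 5hmC reads over 24 input reads in NPC and 112 over 9 in ESC, an enrichment of 0.630 (0.159 to 1.83) in NPC beside 8.84 (4.49 to 19.8) in ESC. The lowest ESC window there, from 113400001 to 113500000, had 0.0789 in NPC and 0.177 in ESC, from 6 and 11 5hmC reads. It lies to the right of the stretch without input. The lowest NPC/ESC ratio of the cluster, 0.0970 (0.0663 to 0.140), was found from 114700001 to 114800000, where NPC had 0.151 and ESC 1.56. Its tile from 114745001 to 114750000 held 6 5hmC reads over 19 input reads in NPC and 75 over 9 in ESC.

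The highest NPC tile of chromosome 7, from 112935001 to 112940000, held 30 5hmC reads over 16 input reads in NPC, a 7.09-fold enrichment (3.74 to 13.9), and 25 over 11 in ESC, a 1.61-fold enrichment (0.766 to 3.63). In NPC 90% of these reads lay on the plus strand, and in ESC 72%. The tile from 112170001 to 112175000 passed in both cell types, with 12 over 8 in NPC (5.67-fold, 2.13 to 15.99) and 14 over 4 in ESC (2.49-fold, 0.781 to 10.4). The highest NPC/ESC ratio among chromosome 7 windows, 0.919 (0.561 to 1.505), lay from 112200001 to 112300000, at 0.313 in NPC and 0.340 in ESC.

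On chromosome 9 the window with the highest NPC/ESC ratio exceeded 1. From 39100001 to 39200000 there were 49 5hmC reads over 130 input reads in NPC (0.377, 0.266 to 0.527) and 45 over 156 in ESC (0.288, 0.202 to 0.404), a ratio of 1.31 (0.797 to 2.14). The window contains the tile described above that was higher in NPC, and the interval includes 1. The highest ESC window, from 40000001 to 40100000, had 0.299 (0.234 to 0.378) in NPC and 1.87 (1.61 to 2.17) in ESC. In it the tile from 40015001 to 40020000 held 2 5hmC reads over 17 input reads in NPC and 110 over 23 in ESC. The tile from 39990001 to 39995000, in the window to its left, was among the 7 enriched in both, with 10 over 16 in NPC (2.36-fold, 0.959 to 5.54) and 38 over 6 in ESC (4.50-fold, 1.89 to 13.02). The lowest ESC window lay from 38100001 to 38200000, at 0.119 in NPC and 0.271 in ESC.

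The step at the cluster edges was larger in ESC than in NPC. Summed over the 6 edges, the first 250 kb inside had a level of 0.213 (0.195 to 0.231) in NPC, against 0.249 (0.233 to 0.265) in the last 250 kb outside. In ESC the levels were 0.795 (0.748 to 0.845) inside and 1.52 (1.46 to 1.59) outside. From 250 to 500 kb inside, they reached 0.170 (0.154 to 0.188) in NPC and 0.394 (0.364 to 0.427) in ESC, and the NPC/ESC ratio was 0.431 (0.381 to 0.489), against 0.163 (0.151 to 0.177) just outside. This contrast depended on background too. After 0.176 was subtracted, the NPC level from 250 to 500 kb inside was -0.00582, below 0, against 0.0728 just outside. The edges were not alike. At the right edge of chromosome 9 the first 250 kb inside still had 0.272 in NPC and 1.57 in ESC, the rich run described above. At the right edge of chromosome 7 the levels were 0.196 (0.155 to 0.245) in NPC and 0.708 (0.601 to 0.833) in ESC inside, against 0.228 (0.190 to 0.273) and 0.762 (0.665 to 0.872) outside, so that the intervals overlapped in both cell types. At the other 4 edges the ESC levels were 0.417 to 0.702 inside, against 1.21 to 1.72 outside.

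**Figure D4:**
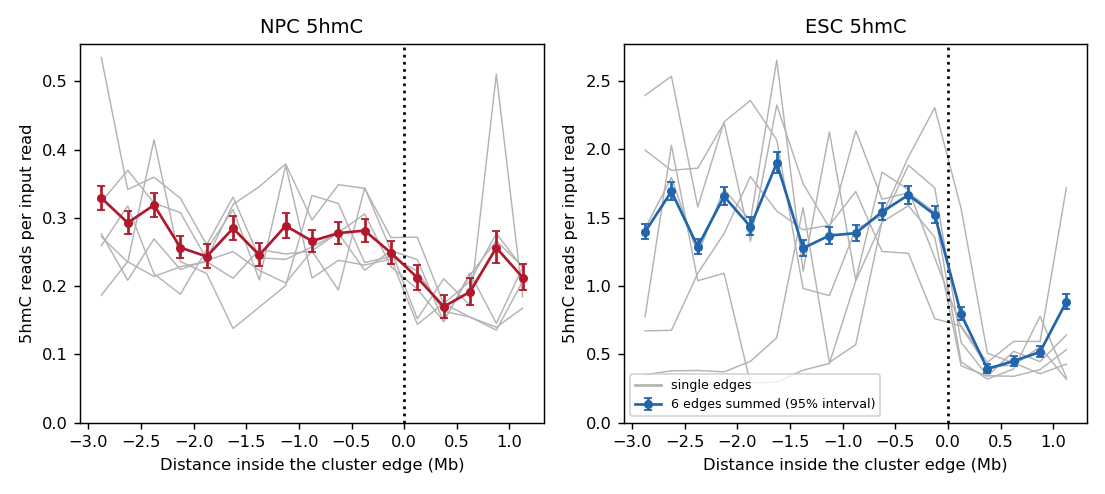
5hmC reads per input read (vertical axis, from 0) of NPC (left panel) and ESC (right panel) by distance inside the cluster edge in Mb (horizontal axis, negative values are flank), in steps of 250 kb. Grey lines are the 6 single edges, and points are their sum with 95% intervals for counting error. The summed ESC level is 0.795 in the first step inside, against 1.52 in the last step outside, and the NPC peak between 0.75 and 1 Mb inside comes from the chromosome 2 edge that holds the tile with 129 NPC reads.

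Among all DNA with as little ESC 5hmC, the clusters did not stand out by a high NPC level, and at ESC levels from 0.3 to 1 they lay below it. Windows of 100 kb with an ESC level of 0.2 to 2 were sorted by that level. The NPC level of cluster windows was set against that of other autosomal windows in the same range. At ESC levels of 0.2 to 0.3 the NPC level was 0.182 in 14 cluster windows and 0.179 elsewhere, a ratio of 1.01 (0.909 to 1.13). At 0.3 to 0.4 it was 0.177 in 44 cluster windows and 0.193 elsewhere, a ratio of 0.918 (0.864 to 0.975). At 0.4 to 0.6 it was 0.196 in 38 cluster windows and 0.210 elsewhere, a ratio of 0.931 (0.876 to 0.989). At 0.6 to 1 it was 0.211 in 24 cluster windows and 0.236 elsewhere, a ratio of 0.895 (0.833 to 0.962). At 1 to 2 it was 0.288 in 11 cluster windows and 0.274 elsewhere, a ratio of 1.054 (0.977 to 1.14). Without the chromosome 2 window that holds the tile of 129 NPC reads, the last ratio was 0.898 (0.826 to 0.976), from 10 windows at 0.246.

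**Figure D5:**
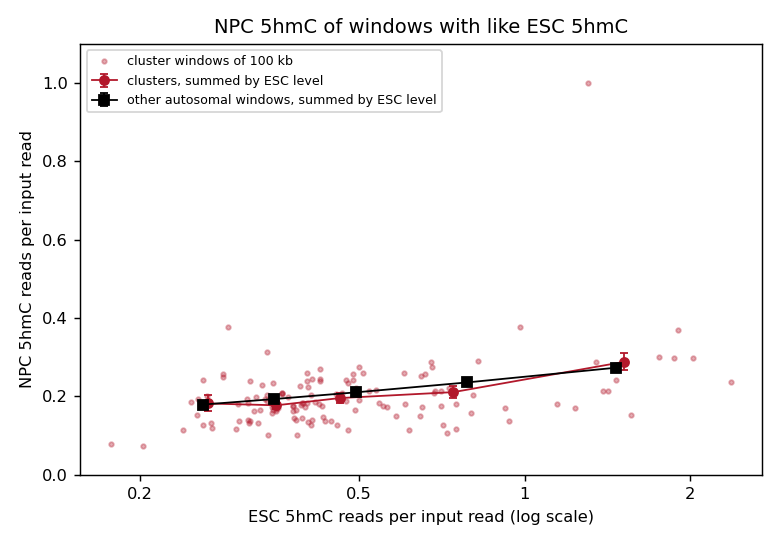
NPC 5hmC reads per input read (vertical axis, from 0) against ESC 5hmC reads per input read (horizontal axis, log scale) of 100 kb windows: single cluster windows (faint dots), cluster windows summed within ranges of ESC level (red circles) and other autosomal windows summed in the same ranges (black squares), with 95% intervals for counting error. The summed cluster values lie between 0.177 and 0.288, and at ESC levels from 0.3 to 1 they are below those of other windows beyond counting error. The single dot at the top right is the chromosome 2 window with the tile of 129 NPC reads.

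At 1 Mb the clusters were low but not at the bottom of the genome in ESC. Of 2390 autosomal windows, 12 lay wholly inside a cluster. In NPC 6 of the 12 were among the 239 lowest, in ESC 2 were, and by the NPC/ESC ratio 2 were among the 239 highest. Each of these classes holds 10% of all windows by construction. The median autosomal window had 0.243 in NPC, 1.06 in ESC and a ratio of 0.233. From 88000001 to 89000000 on chromosome 2, ESC reached 0.322, rank 71 from the lowest, and NPC 0.186. The lowest NPC level of the 12, 0.166, was found from 110000001 to 111000000 on chromosome 7, where ESC had 0.434. The chromosome 7 windows from 112000001 to 113000000 and from 114000001 to 115000000 had ESC levels of 1.16 and 1.19, above the median, and NPC levels of 0.273 and 0.216.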

How the data were processed

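DNA of NPC and ESC was sequenced as a 5hmC and an input library each (hMeDIP-seq). The submitters' processing notes name Bowtie 0.12.7 and build mm9. The deposited files list read positions extended to 350 bp with a raw read count per position, as the values show. Their treatment of reads with several matches is not given in the sources used here. Each position and strand was counted once, at its midpoint, and 97.9% to 99.7% of positions held 1 read. Levels are ratios of summed distinct reads of the deposited files. Intervals are exact (Clopper-Pearson) for ratios of 2 counts, and normal on the log scale for ratios of 4 counts of at least 50 each, otherwise exact conditional. They are not adjusted for the choice of extremes. Calculations used scipy 1.17.1 and pandas 2.3.3 under Python 3.11.15. Of these, only the tile calls and the interval for ratios of 4 counts were tried on simulated counts. The members and lists were chosen with earlier results of these data known. Named regions are, per cluster, the 100 kb windows with extreme ESC level or NPC/ESC ratio (at least 100 input reads) and the 3 tiles with the highest enrichment per cell type (at least 10 5hmC and 10 input reads), of which the text gives a selection. A receptor run joined RefSeq entries with at most 40 other genes between them. Read treatment, minimum input, tile size, background, flanks, pseudocount and depth were varied. No mm9 annotation was used here.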

Additional observations from a re-analysis of the deposited data

How the results depend on the processing

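Of 108 recalculated values, 68 kept their direction and size, 39 moved beyond counting error (or, for counts, by over 1.5 times) and 1 reversed. Some of the 68 could not change. Leaving out tiles above 5 times the median input removed 0 cluster tiles, and leaving out a chromosome 2 tile cannot alter the ratios of chromosomes 7 and 9. Subtracting a background of 0.176 reversed the cluster-to-flank ratio of NPC/ESC ratios to 0.784, and gave NPC/ESC ratios of 0.0608 pooled, 0.101 on chromosome 2, 0.0476 on chromosome 7 and 0.0702 on chromosome 9, with cluster-to-flank ratios of 0.274 in NPC and 0.349 in ESC. In the same quantities, a minimum of 15 input reads gave 0.284 pooled, 0.231 on chromosome 7, 0.672 in NPC and 1.55 for the ratio of ratios. Leaving out the 1% of tiles with most 5hmC reads gave 0.331 pooled, 0.273 on chromosome 7, 0.390 in ESC and 1.81 for the ratio of ratios. Flanks of 1 Mb gave 0.759 in NPC and 1.81, tiles of 1 kb gave 0.413 in ESC, and autosomes outside the clusters and flanks gave 0.770 in NPC and 0.451 in ESC. Equal weight of the clusters gave 0.345 pooled. Single clusters gave cluster-to-flank ratios of 0.693, 0.814 and 0.688 in NPC and 0.271, 0.557 and 0.394 in ESC on chromosomes 2, 7 and 9, and ratios of ratios of 2.55 and 1.46 on chromosomes 2 and 7. Without a minimum, input reads per tile were 0.528 of the flanks in NPC and 0.536 in ESC, a setting chosen after seeing the data. Enriched cluster tiles numbered 24 in ESC with a pseudocount of 5 (29 at least 2-fold lower in NPC), 278 in NPC without a minimum of 5hmC reads (101 lower), 3 in NPC with a minimum of 20 (37 lower), 26 in ESC at equal depth (33 lower), and 37 in ESC with 15 input reads, also chosen later. Leaving out the tile of 129 NPC reads, likewise added later, moved none of these results by itself, but together with the subtraction it gave 0.0394 on chromosome 2. No paired analysis was possible because each group held 1 library. The cause of these changes was not tested. With a median of 1 NPC 5hmC read per cluster tile, single tiles are limited by depth and only sums over many tiles are precise.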

Other observations

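DNA as poor in ESC 5hmC as the receptor clusters also lay in their flanks. Runs of at least 5 adjacent 100 kb windows at least 2-fold below the genome in ESC, chosen after the values were seen, were found in the left flank of chromosome 2 from 82000001 to 83400000 and from 83700001 to 84200000, and in the left flank of chromosome 9 from 35400001 to 36500000. The levels of the first were 0.218 (0.197 to 0.240) in NPC and 0.382 (0.349 to 0.418) in ESC, of the second 0.229 (0.195 to 0.268) and 0.479 (0.419 to 0.547), and of the third 0.180 (0.159 to 0.202) and 0.346 (0.311 to 0.383). Their NPC/ESC ratios were 0.570, 0.477 and 0.520, beside 0.477 in the chromosome 2 cluster, and their low ESC level was what chose them. After a background of 0.176 was subtracted the ratios were 0.203, 0.174 and 0.0223, beside 0.0608 in the pooled clusters. The NPC interval of the third run, 0.159 to 0.202, includes the value subtracted, so the sign of its ratio is not resolved. The left flanks with these runs are the ones against which the chromosome 2 and chromosome 9 clusters stood out least.

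Flank windows with an ESC level of 0.6 to 1 had an NPC level of 0.279 (0.266 to 0.292), against 0.236 in other autosomal windows of that range, a ratio of 1.18 (1.13 to 1.24). Cluster windows of the same range had 0.211 (0.196 to 0.227) in NPC, below the other windows. Of the ranges used above, this one gave the flanks their highest ratio. The flank ratio was 0.947 (0.778 to 1.15) at 0.2 to 0.3 and 1.01 (0.911 to 1.12) at 0.3 to 0.4. It was 1.12 (1.02 to 1.22) at 0.4 to 0.6 and 1.02 (0.995 to 1.04) at 1 to 2.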
